A study of Mus musculus with 4 samples.

Results

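The extracellular matrix mRNAs of YUMM1.7 cells were compared between protrusions and cell bodies. YUMM1.7 is a mouse melanoma line from an engineered tumour model, and the labels give the cells of both fractions as wildtype, with no further treatment. The fractions came from cells kept overnight on porous inserts (pore size 1 µm, fibronectin on the lower face). The protrusion fraction is what the scraped and swabbed membrane retained, and the cell body fraction is what was scraped off its top. The 4 libraries are 2 of protrusions and 2 of cell bodies, numbered as biological replicates 1 and 2, each from 6 inserts. The set described here holds 54 named genes of the 16537 in the table. They encode collagens, laminins, other matrix glycoproteins and proteoglycans, and the enzymes, chaperone, protease and inhibitors that modify them. They were listed by function, but with earlier results of these data known, so their counts and medians are a description. Of the 54 genes, 51 had a mean of at least 1 TPM (the share of a library's transcripts, corrected for gene length) and were tested, together with 11400 genes in all.

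Matrix proteins are made on the rough endoplasmic reticulum (ER). A hydrophobic signal sequence at the N terminus directs the ribosome and its mRNA to the ER membrane, where the growing chain enters the lumen. Procollagen chains are hydroxylated there by prolyl and lysyl hydroxylases and held by the chaperone HSP47 while they fold into a triple helix, and the secreted molecules are cross-linked outside the cell by lysyl oxidases. Melanoma cells secrete such proteins themselves, among them osteopontin and SPARC, and also meet the matrix made by stromal fibroblasts.

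The recovered number of reads assigned to genes was 25854930 to 30994908 per library, with 14784 to 15123 genes detected. The labelled cell type was checked against 7 melanocyte lineage markers, of which 3 were found in the table. Mitf stood at 5.45 and 6.17 TPM in protrusions and at 5.12 and 5.93 TPM in cell bodies, whereas the pigment genes Tyr and Pmel were under 1 TPM in every library. The other 4 were not analysed here. Summed hepatocyte markers, 15 genes such as Alb, reached 66.9 TPM in replicate 1 of protrusions and 3.34 TPM in replicate 2, against 1.20 and 3.22 TPM in cell bodies. Endothelial and keratinocyte markers summed to at most 0.212 TPM in any library, and macrophage markers to at most 3.98 TPM, nearly all of it Cd68. The summed fibroblast markers were 9293 and 8256 TPM in protrusions and 11203 and 8691 TPM in cell bodies, nearly all of it S100a4. The part of these RNAs in the results below was not tested.

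Matrix mRNAs took a smaller share of the protrusion libraries than of the cell body libraries. The 54 genes summed to 1.25% and 1.13% of all TPM in protrusions, against 2.12% and 2.65% in cell bodies. Osteopontin mRNA (Spp1) was the largest contributor, and without it the sums were 0.638% and 0.527% in protrusions and 0.790% and 0.922% in cell bodies. Bulk libraries cannot tell fewer cells of a type from less RNA per cell, and TPM gives shares and not amounts per protrusion.

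Of the 51 tested genes, 45 had a lower mean level in protrusions (88.2%, beside 56.9% of all genes). The median log2 fold change of the 51, protrusions over cell bodies, was -0.45, beside -0.07 over all 11400 genes. In limma on log2(TPM + 0.5), with Benjamini-Hochberg adjustment over all genes, 4 matrix mRNAs fell in protrusions (7.84%) and none rose, where 4.25% of all tested genes fell and 2.99% rose. No matrix mRNA was higher at an unadjusted p under 0.05. The 4 that fell were Spp1, Col5a2, Plod2 and Timp1. With the replicate number as a block, 19 matrix mRNAs fell (37.3%) and none rose, although 2, Col1a1 and Hspg2, were higher at an unadjusted p under 0.05. Across all genes, 13.3% fell and 8.08% rose in the blocked fit. A fit of limma voom on recovered reads with the block called both Col1a1 and Hspg2 higher. That fit used a variance shared by all genes, so a gene's own spread between libraries had no weight. In the blocked limma fit on log2(TPM + 0.5) that spread had little weight, since the prior variance dominated. Both protrusion libraries lay below both cell body libraries for 29 of the 51 genes (56.9%), beside 37.0% of all genes. They lay above both cell body libraries for 1 gene, Hspg2 (1.96%), beside 26.4% of all genes. Which matrix mRNAs were called changed with the library left out, a fit that leaves 1 library in a fraction. Of the 51 genes, 46 were below 0 without replicate 1 of protrusions and 42 without replicate 2. The numbers were 48 without replicate 1 of cell bodies and 37 without replicate 2. Over all genes the median log2 fold change ran from -0.12 to -0.02 in these fits. Without replicate 2 of protrusions the matrix median was -0.30, beside -0.04 over all genes. No matrix mRNA passed when genes of any level were kept or when the prior variance had no trend, nor did any other gene.

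**Figure D1:**
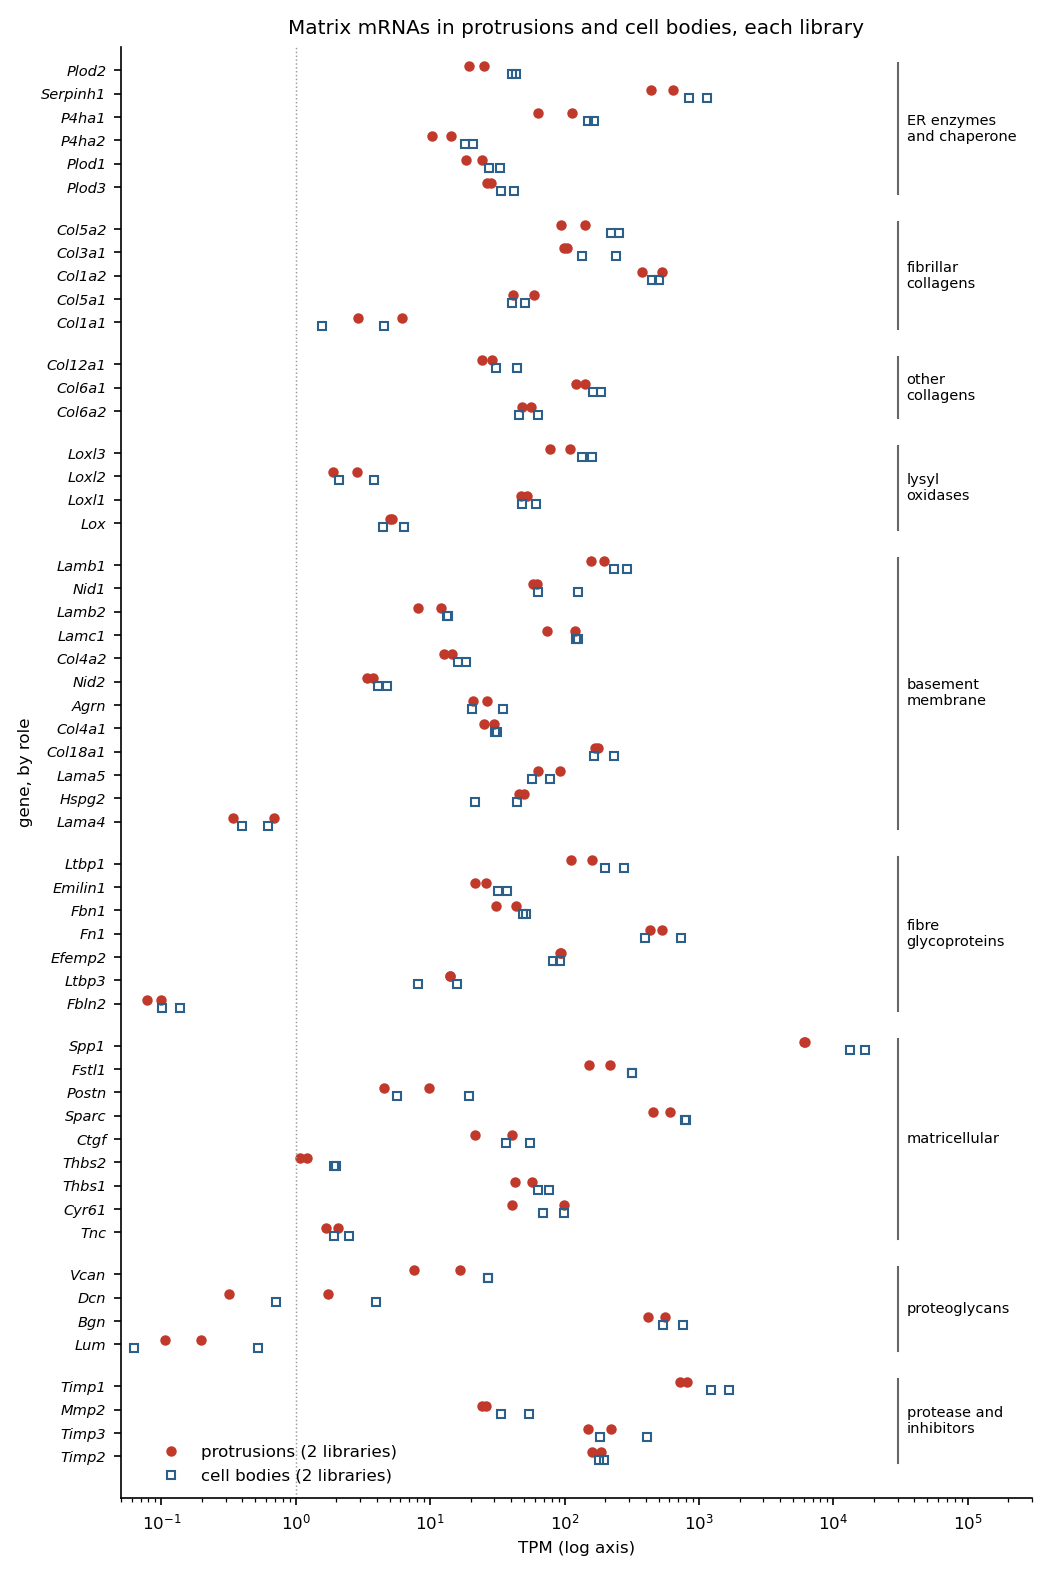
Level of each of the 54 matrix mRNAs in each library, in TPM on a log axis, grouped by role, with protrusions (filled circles) drawn above cell bodies (open squares) and a dotted line at 1 TPM. Spp1 stands apart at 6144 and 6047 TPM in protrusions and 13345 and 17258 TPM in cell bodies, and Lama4, Lum and Fbln2 lie under the line.

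The sequences below show the feature that directs these mRNAs' products to the ER. Given is the start of the coding sequence, 75 bases each, of the 4 mRNAs that fell and of Hspg2 and Efemp2, which were among the 6 with a positive fold change. Capitals mark the codons of the most hydrophobic window of 11 residues within the first 40. The sequences are from GENCODE transcripts on GRCm38.
Spp1: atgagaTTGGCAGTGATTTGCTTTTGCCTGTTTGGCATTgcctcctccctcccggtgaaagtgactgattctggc
Col5a2: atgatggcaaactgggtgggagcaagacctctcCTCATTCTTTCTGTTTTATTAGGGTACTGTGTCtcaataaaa
Plod2: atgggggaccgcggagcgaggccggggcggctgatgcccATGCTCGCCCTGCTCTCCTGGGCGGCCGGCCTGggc
Timp1: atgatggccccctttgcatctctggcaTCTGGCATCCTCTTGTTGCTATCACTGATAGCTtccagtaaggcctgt
Hspg2: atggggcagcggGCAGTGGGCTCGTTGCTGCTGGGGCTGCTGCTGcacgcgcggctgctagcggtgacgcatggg
Efemp2: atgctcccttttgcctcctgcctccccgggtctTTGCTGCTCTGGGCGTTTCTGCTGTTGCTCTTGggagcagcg
The genes lie on the forward strand of chromosomes 5 (Spp1, chr5:104435118-104441050), 9 (Plod2, chr9:92542223-92608428), X (Timp1, chrX:20870166-20874735), 4 (Hspg2, chr4:137468769-137570630) and 19 (Efemp2, chr19:5473954-5482517), and on the reverse strand of chromosome 1 (Col5a2, chr1:45374321-45503282). The window's mean Kyte-Doolittle hydropathy was 2.98 for Spp1, 2.55 for Col5a2, 1.85 for Plod2, 2.53 for Timp1, 2.47 for Hspg2 and 3.10 for Efemp2. Plod2 lay under the value of 2 that is used as a minimum below, and the other 5 above it.

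The ER enzymes and the chaperone of collagen were lower in protrusions in every gene measured. All 6 had both protrusion libraries below both cell body libraries (100%, beside 37.0% of all genes), with a median log2 fold change of -0.77. In limma 1 of the 6 fell (16.7%, beside 4.25%), and with the block 4 of the 6 (66.7%, beside 13.3%).

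Plod2, the lysyl hydroxylase of collagen telopeptides, had 25.0 and 19.4 TPM in protrusions, against 40.5 and 43.5 TPM in cell bodies. It fell, with a log2 fold change of -0.91 ± 0.16 (SE, limma adjusted p = 0.0400). Its paralogs Plod1 and Plod3 were lower as well, at -0.49 and -0.45, but passed neither without nor with the block. Their limma adjusted p was 0.139 and 0.119 without the block and 0.0725 and 0.0646 with it. With the block after GC correction, both passed (adjusted p = 0.0302 and 0.00855).

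Serpinh1 encodes HSP47, the collagen-specific chaperone, and was the most abundant mRNA of the group. It had 635 and 437 TPM in protrusions, against 1141 and 840 TPM in cell bodies, with no overlap. Its log2 fold change was -0.89 ± 0.23 (SE without the block, 0.12 with it). Among genes of at least 1 TPM, it passed limma only with the block (adjusted p = 0.00102, and 0.0679 without it). With a mean of at least 5 TPM it passed without the block too (limma adjusted p = 0.0471). The last 42 coding bases before the stop codon are shown for the ER retrieval signal RDEL, whose codons are in capitals.
Serpinh1: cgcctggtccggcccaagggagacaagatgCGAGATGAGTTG
The gene is on chromosome 7 (chr7:99345376-99353239, reverse strand).

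The catalytic subunits of prolyl 4-hydroxylase, which makes the hydroxyproline that stabilises the collagen helix, were lower too. P4ha1 had 113 and 63.1 TPM in protrusions, against 165 and 148 TPM in cell bodies. P4ha2 had 14.3 and 10.3 TPM in protrusions, against 20.7 and 18.1 TPM in cell bodies. Both passed limma only with the block, P4ha1 at -0.88 ± 0.27 (SE, adjusted p = 0.00388 with the block, 0.0954 without) and P4ha2 at -0.65 ± 0.20 (SE, 0.0220 and 0.0929).

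The fibrillar collagens had fold changes on both sides of 0. Their median log2 fold change was -0.09, 1 of 5 fell in limma (beside 4.25% of all genes) and 2 of 5 with the block (beside 13.3%), and the values ran from -1.03 for Col5a2 to 0.55 for Col1a1.

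Col5a2, the alpha 2 chain of type V collagen, had 142 and 94.6 TPM in protrusions, against 254 and 221 TPM in cell bodies. It fell, with a log2 fold change of -1.03 ± 0.21 (SE, limma adjusted p = 0.0466, and 0.000891 with the block). Its partner chain Col5a1 had 59.3 and 41.6 TPM in protrusions, against 40.3 and 50.6 TPM in cell bodies, and the fractions overlapped. On the per-length scale the ratio of Col5a2 to Col5a1 was 2.40 and 2.27 in protrusions, against 6.30 and 4.38 in cell bodies. The ratio was thus lower in both protrusion libraries than in either cell body library, a description of 2 libraries a fraction with no test of the ratio.

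Col3a1, the single chain of type III collagen, had 98.4 and 104 TPM in protrusions, against 135 and 243 TPM in cell bodies. Its log2 fold change of -0.84 ± 0.27 (SE) passed limma only with the block (adjusted p = 0.00592, and 0.105 without). The cell body libraries differed more from each other than the protrusion libraries did.

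The chains of type I collagen were at very unequal levels. Col1a2 had 530.2 and 376 TPM in protrusions, against 503 and 449 TPM in cell bodies, and the fractions overlapped. Col1a1 had only 2.90 and 6.14 TPM in protrusions, against 1.57 and 4.55 TPM in cell bodies, from 114 to 491 reads per library. Type I collagen is usually a trimer with more alpha 1 than alpha 2 chains, while the ratio of Col1a2 to Col1a1 mRNA was 183 and 61.3 in protrusions and 319 and 98.8 in cell bodies. The log2 fold change of Col1a1, 0.55 ± 0.51 (SE), did not pass limma without or with the block (adjusted p = 0.498 and 0.118).

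The Gly-X-Y triplet repeat that defines a collagen is shown for the chain that fell and for 2 that did not. Capitals mark the glycine codons of the first 90 bases of the longest uninterrupted run.
Col5a2: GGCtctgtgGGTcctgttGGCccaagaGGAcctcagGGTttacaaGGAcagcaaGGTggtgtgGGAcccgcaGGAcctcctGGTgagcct
Col5a1: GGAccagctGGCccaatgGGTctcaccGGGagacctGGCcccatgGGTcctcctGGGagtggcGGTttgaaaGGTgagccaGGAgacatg
Col1a2: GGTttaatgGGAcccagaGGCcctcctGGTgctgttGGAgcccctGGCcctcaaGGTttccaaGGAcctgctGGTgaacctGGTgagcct
Col5a1 lies on chromosome 2 (chr2:27886425-28039514) and Col1a2 on chromosome 6 (chr6:4504814-4541544), both on the forward strand. The run was 339 triplets in Col5a2, 338 in Col5a1 and 338 in Col1a2. It was 87 in each of Col6a1 and Col6a2, and interruptions shortened it to 40 in Col4a1 and 66 in Col4a2.

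Among the other collagens, Col6a1 of the beaded filaments of type VI collagen was lower in protrusions. It had 142 and 120.5 TPM in protrusions, against 187 and 163 TPM in cell bodies. The log2 fold change of -0.41 ± 0.14 (SE) passed limma only with the block (adjusted p = 0.0319, and 0.110 without). Col6a2, its neighbour on chromosome 10 and partner in the same trimer, had 48.3 and 56.3 TPM in protrusions, against 45.7 and 63.2 TPM in cell bodies. The Col6a2 fractions overlapped, and its 95% interval ran from -0.50 to 0.42. The fibril-associated collagen Col12a1 had a log2 fold change of -0.46 and did not pass limma without or with the block (adjusted p = 0.184 and 0.0949).

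The lysyl oxidases cross-link collagen and elastin outside the cell, and all 4 had negative fold changes (100%, beside 56.9% of all genes). In limma 1 of 4 fell with the block (25.0%, beside 13.3%) and none without it (beside 4.25%). Loxl3 had 109 and 78.2 TPM in protrusions, against 160.3 and 136 TPM in cell bodies, and passed limma only with the block (log2 fold change -0.67 ± 0.19 SE, adjusted p = 0.00475, and 0.0798 without). Loxl1, the second most abundant, had 47.0 and 52.5 TPM in protrusions, against 48.5 and 61.1 TPM in cell bodies. The Loxl1 fractions overlapped, with a 95% interval of -0.51 to 0.25. Loxl2 averaged 2.37 TPM in protrusions and 2.94 TPM in cell bodies, and Lox 5.10 and 5.38 TPM, with log2 fold changes of -0.23 and -0.05, and neither passed limma without or with the block.

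**Figure D2:**
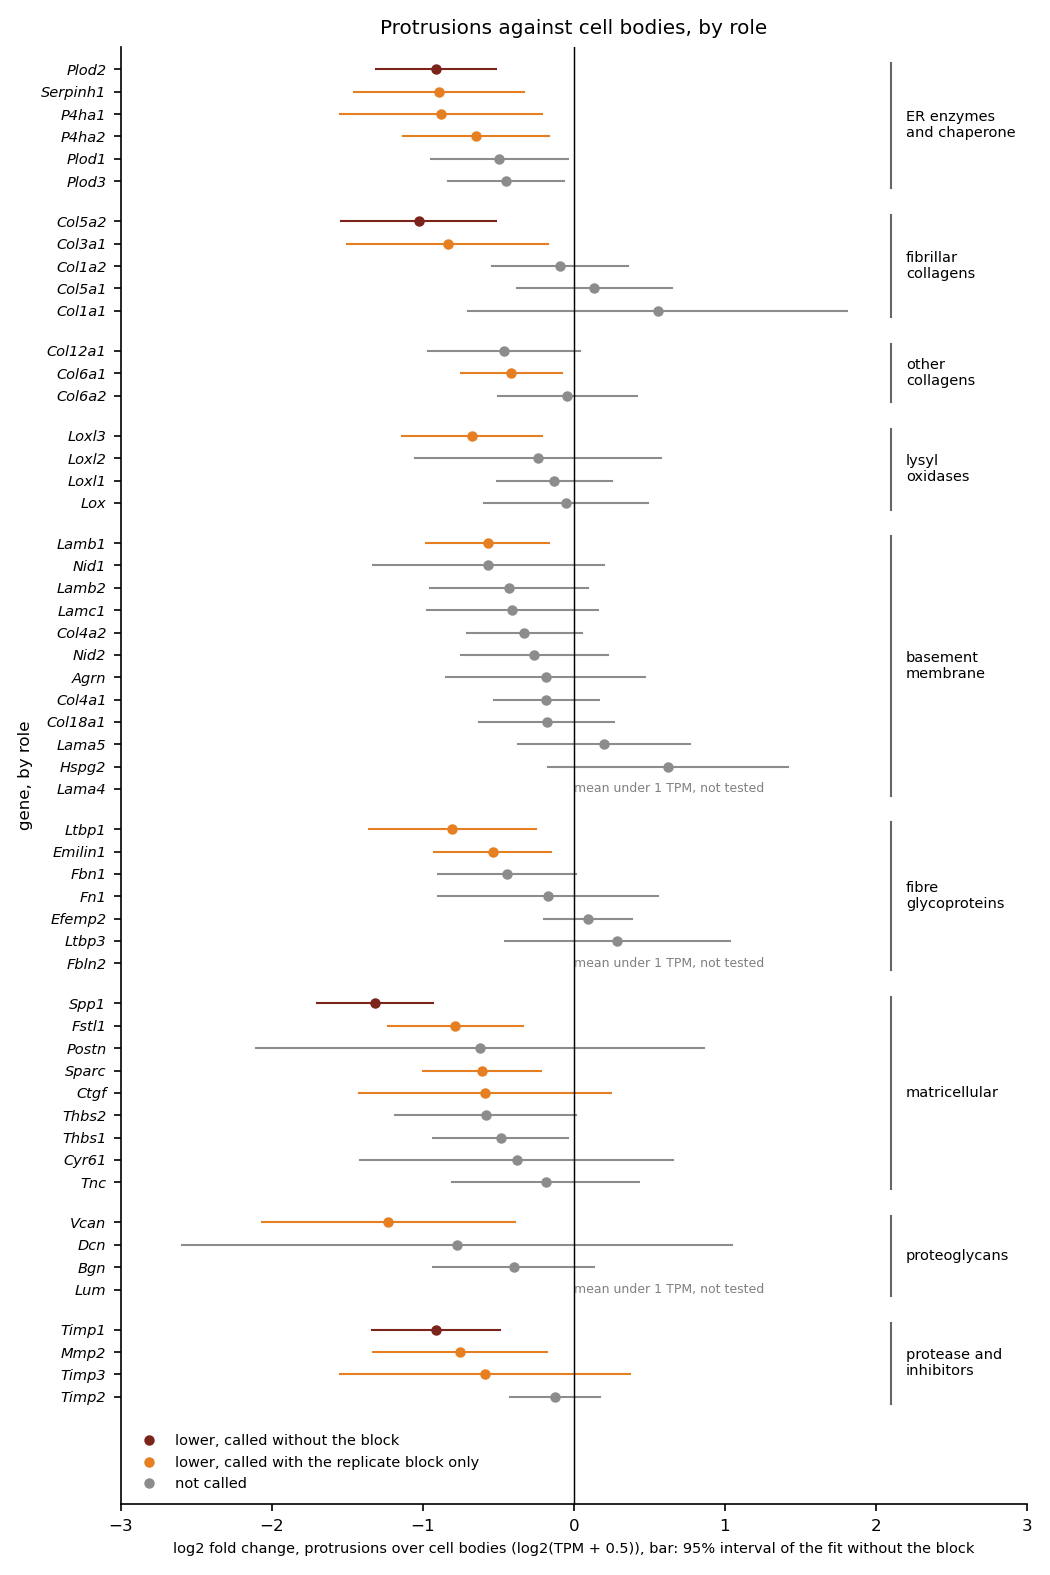
Log2 fold change (protrusions over cell bodies) of each matrix mRNA, grouped by role, with the 95% interval of the limma fit without the replicate block. Of 51 tested genes 45 lie left of 0, the 4 called without the block are Spp1, Col5a2, Plod2 and Timp1, and intervals of genes called only with the block, such as Ctgf and Timp3, may cross 0.

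The basement membrane genes encode the sheet of laminin, type IV collagen, nidogen and heparan sulphate proteoglycan under epithelia and around vessels. Their median log2 fold change was -0.26. In limma 0 of 11 passed without the block, and 1 of 11 fell with it (9.09%, beside 13.3% of all genes). After GC correction the group's median was -0.50, beside -0.07 over all genes. With the block after GC correction, Col18a1, Col4a2, Lamb1, Lamb2, Lamc1 and Nid1 fell, beside 1525 of all 11400 genes. Lamb1, the laminin beta 1 chain, had 196 and 158 TPM in protrusions, against 234 and 292 TPM in cell bodies. Its log2 fold change of -0.57 ± 0.16 (SE) had a limma adjusted p of 0.0216 with the block and 0.0856 without. Lamc1, the gamma 1 chain of the same trimers, was at -0.41 and did not pass (adjusted p = 0.276, and 0.10 with the block). With the block after GC correction, Lamc1 passed (limma adjusted p = 0.0398).

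The laminin alpha 5 chain and perlecan were at the other end of the group. Lama5 had 92.4 and 63.6 TPM in protrusions, against 57.2 and 77.7 TPM in cell bodies, with overlap. Perlecan (Hspg2), a heparan sulphate proteoglycan, had 50.2 and 45.8 TPM in protrusions, against 21.6 and 44.3 TPM in cell bodies. Hspg2 had the highest log2 fold change of the 51, 0.62 ± 0.32 (SE), which did not pass limma without or with the block (adjusted p = 0.243 and 0.0666). The difference lay in replicate 1, where the log2 ratio was 1.20, beside 0.05 in replicate 2.

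Col18a1, the basement membrane collagen that yields endostatin, had 168 and 177 TPM in protrusions, against 164 and 233 TPM in cell bodies. The fractions overlapped. The type IV chains Col4a1 and Col4a2, whose genes are neighbours on chromosome 8, were at -0.18 and -0.33, and their ratio was 2.04 and 1.97 in protrusions and 1.88 and 1.73 in cell bodies. Nid1, nidogen 1, was at -0.57 and lay just outside the threshold with the block (limma adjusted p = 0.0501, and 0.267 without). With the block after GC correction, Nid1 passed (adjusted p = 0.0312). Lama4 was not tested, with 0.686 and 0.340 TPM in protrusions and 0.397 and 0.625 TPM in cell bodies.

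Among the glycoproteins of fibres and microfibrils, 2 of 6 tested genes fell with the block (33.3%, beside 13.3% of all genes) and none without it. Ltbp1, which binds latent TGF-beta to fibrillin fibres, had 159.6 and 112 TPM in protrusions, against 199 and 275 TPM in cell bodies (log2 fold change -0.80 ± 0.23 SE, limma adjusted p = 0.0123 with the block and 0.0799 without). Emilin1, an elastin fibre glycoprotein, had 26.1 and 21.4 TPM in protrusions, against 37.1 and 32.1 TPM in cell bodies, with an adjusted p of 0.0259 with the block and 0.0874 without. Neither gene's fractions overlapped.

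Fn1, the mRNA of fibronectin, was among the most abundant of the set and changed sides between replicates. It had 534 and 433 TPM in protrusions, against 397 and 739.9 TPM in cell bodies. The log2 ratio was 0.43 in replicate 1 and -0.77 in replicate 2, and the pooled value of -0.17 had a 95% interval of -0.90 to 0.56. Ltbp3, a relative of Ltbp1, had 13.9 and 14.1 TPM in protrusions, against 8.15 and 15.8 TPM in cell bodies, and did not pass (log2 fold change 0.29 ± 0.30 SE). Fibrillin 1 (Fbn1) was at -0.44 and fibulin 4 (Efemp2) at 0.09, and neither passed limma without or with the block. With the block, Fbn1 passed after GC correction (adjusted p = 0.0304). Fbln2 had 6 to 8 reads per library and was not tested.

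The matricellular genes, secreted modulators of cell and matrix contact, were lower in protrusions in all 9 cases (100%, beside 56.9% of all genes). Their median log2 fold change was -0.59. In limma 1 of 9 fell (11.1%, beside 4.25% of all genes), and 4 of 9 with the block (44.4%, beside 13.3%). Spp1, osteopontin, a ligand of integrins through its RGD motif, had 6144 and 6047 TPM in protrusions, against 13345 and 17258 TPM in cell bodies. It fell 2.49-fold, the largest change of the set, with a log2 fold change of -1.32 ± 0.16 (SE, limma adjusted p = 0.0342, and 0.000703 with the block). Its 95% interval of -1.70 to -0.93 comes from 2 libraries a fraction, and reads did not enter that fit. Spp1 had 137490 or more reads per library.

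Sparc, a collagen-binding glycoprotein, was lower as well. It had 603 and 451 TPM in protrusions, against 802 and 789.7 TPM in cell bodies (log2 fold change -0.61 ± 0.16 SE, limma adjusted p = 0.00924 with the block and 0.0693 without). Fstl1, a SPARC-related glycoprotein, had 219 and 153 TPM in protrusions, against 316 and 315 TPM in cell bodies (-0.79 ± 0.18 SE, 0.00362 and 0.0567). Neither gene overlapped between fractions.

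Ctgf and Cyr61, both CCN family genes known as targets of YAP, showed larger differences between replicates than between fractions. Ctgf had 40.7 and 21.6 TPM in protrusions, against 55.4 and 36.3 TPM in cell bodies, and was called lower only with the block (log2 fold change -0.59, limma adjusted p = 0.0168, and 0.283 without). Cyr61 had 99.2 and 40.3 TPM in protrusions, against 98.6 and 68.9 TPM in cell bodies. Cyr61 did not pass without or with the block (adjusted p = 0.578 and 0.139). Thbs1, Thbs2, Tnc and Postn were at -0.49, -0.59, -0.19 and -0.62 and passed limma neither without nor with the block. With the block after GC correction, only Thbs1 of these passed (limma adjusted p = 0.0405).

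Of the proteoglycans, versican (Vcan), a large chondroitin sulphate proteoglycan, was the lowest. It had 16.5 and 7.62 TPM in protrusions, against 27.1 and 27.0 TPM in cell bodies. Its log2 fold change of -1.23 ± 0.34 (SE) had a limma adjusted p of 0.00435 with the block and 0.0779 without. Biglycan (Bgn), a small leucine-rich proteoglycan, had 559.8 and 419 TPM in protrusions, against 536 and 761 TPM in cell bodies, with overlap and a log2 fold change of -0.40 that did not pass. Lum was not tested, with 2 to 14 reads per library.

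Among the protease and its inhibitors, 1 of 4 fell in limma (25.0%, beside 4.25% of all genes) and 3 of 4 with the block (beside 13.3%). Timp1, a secreted inhibitor of matrix metalloproteinases, had 723 and 811 TPM in protrusions, against 1236 and 1683 TPM in cell bodies. It fell, with a log2 fold change of -0.91 ± 0.17 (SE, limma adjusted p = 0.0427, lost with quantile normalization). The gelatinase Mmp2 had 24.2 and 26.1 TPM in protrusions, against 33.6 and 54.2 TPM in cell bodies, and passed only with the block (-0.75 ± 0.23 SE, adjusted p = 0.0102, and 0.0975 without).

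Timp3, the inhibitor that binds the matrix, had 150.3 and 220 TPM in protrusions, against 183 and 409.8 TPM in cell bodies. Each protrusion library lay below the cell body library of its own number, but the fractions overlapped. Timp3 passed only with the block (log2 fold change -0.59, limma adjusted p = 0.0177, and 0.344 without). Timp2 was at -0.12, with a 95% interval of -0.42 to 0.17.

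The 2 replicates differed in how far matrix mRNAs were apart between fractions. The median log2 ratio of the 51 genes was -0.16 in replicate 1 and -0.77 in replicate 2, beside 0.00188 and -0.14 over all tested genes. The ratio was lower in replicate 2 than in replicate 1 for 50 of the 51 genes, Loxl2 being the exception, and for 69.8% of all genes. Of the 51 genes, 36 were lower in protrusions in both replicates (70.6%, beside 44.3% of all genes) and 12 only in replicate 2. The 3 that were higher in both (5.88%, beside 32.7% of all genes) were Col1a1, Hspg2 and Efemp2.

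**Figure D3:**
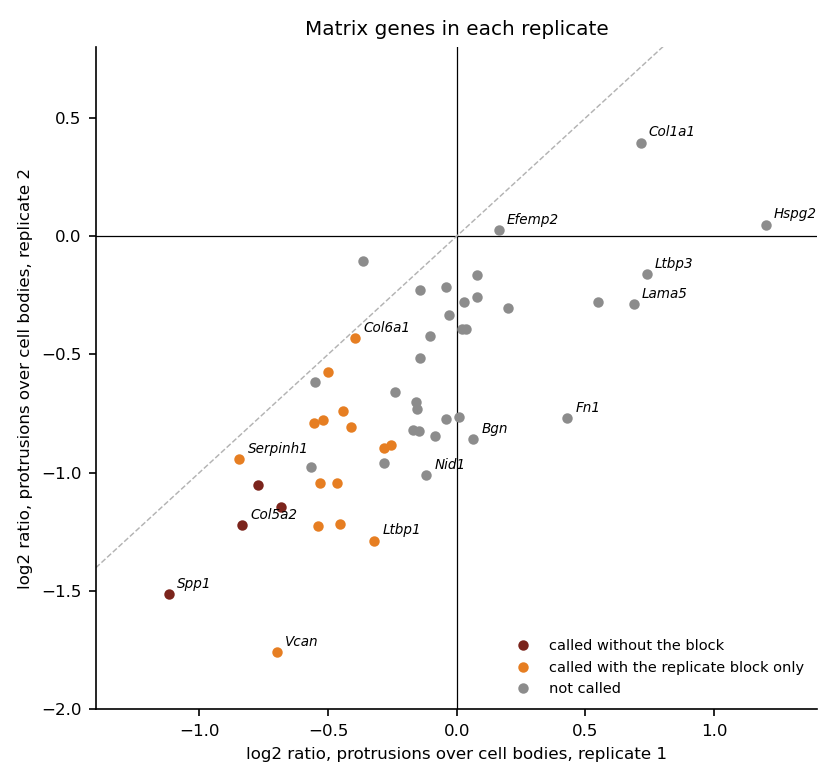
Log2 ratio of protrusions over cell bodies in replicate 1 (horizontal axis) and in replicate 2 (vertical axis) for the 51 tested matrix mRNAs, with a dashed line of equality. 36 genes lie in the lower left field and 3 in the upper right, and 50 of the 51 lie below the line of equality.

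Some matrix mRNAs differed between the replicates in both fractions alike. In the blocked limma fit the replicate term was called for 6 of the 51 genes (11.8%), beside 2.03% of all tested genes. Dcn, decorin, had 0.320 and 1.75 TPM in protrusions of replicates 1 and 2, against 0.716 and 3.92 TPM in cell bodies, from 9 to 106 reads. Postn, periostin, had 4.56 and 9.79 TPM in protrusions, against 5.67 and 19.5 TPM in cell bodies. Both are listed as fibroblast markers and were higher in replicate 2 of each fraction.

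The replicate term, replicate 2 over replicate 1 on the log2 scale, was 1.66 for Dcn, 1.36 for Postn, 1.12 for Col1a1 and 0.85 for Timp3 (limma adjusted p = 0.00880, 0.00543, 0.0315 and 0.0104). It was -0.90 for Cyr61 and -0.75 for Ctgf (0.0182 and 0.0220). The other listed fibroblast markers did not share 1 direction. Pdpn and Lum were higher in replicate 2 of both fractions and S100a4 lower in both, while Pdgfra and Pdgfrb were lower in replicate 2 of protrusions and higher in replicate 2 of cell bodies. Whether the replicates differed in their cells was not tested.

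**Figure D4:**
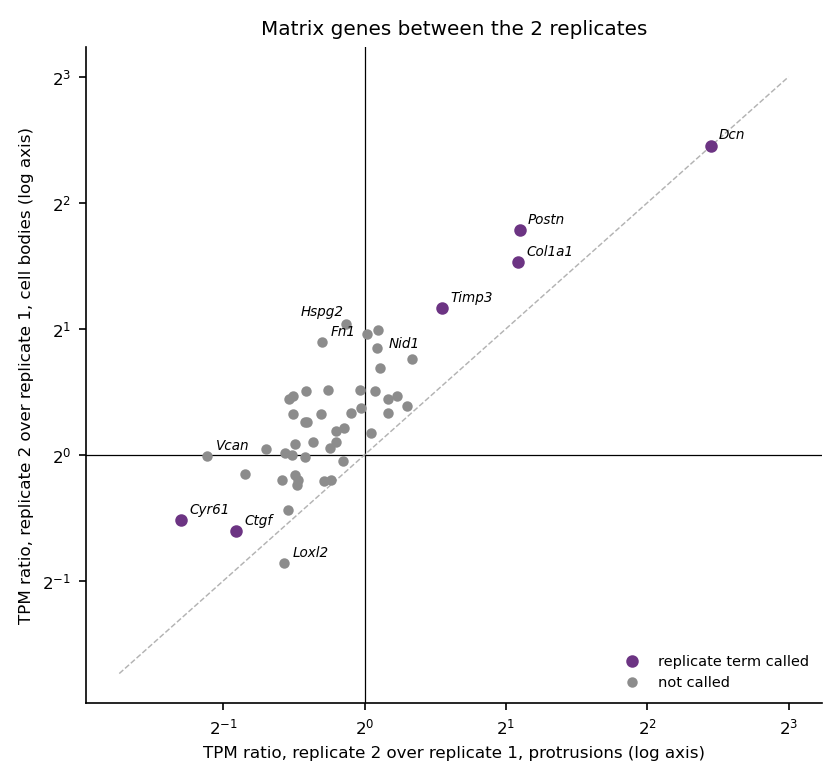
TPM of replicate 2 over replicate 1 in protrusions (horizontal axis) and in cell bodies (vertical axis) for the 51 tested matrix mRNAs, both on log axes, with a dashed line of equality. Dcn, Postn, Col1a1 and Timp3 lie above 1 on both axes and Cyr61 and Ctgf below 1 on both.

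Other genes of the same pathways were listed to set the 51 in context. Of 21 tested genes of collagen synthesis and processing, 3 fell in limma (14.3%, beside 4.25% of all genes) and none rose, and 10 fell with the block (47.6%, beside 13.3%), with a median log2 fold change of -0.44. Ppib, cyclophilin B, which isomerises prolines of procollagen, had 507 and 455 TPM in protrusions, against 857 and 880.0 TPM in cell bodies (-0.85 ± 0.11 SE, adjusted p = 0.0342). Leprel4 was at -0.71 and Glt25d1, the collagen galactosyltransferase, at -0.74, and both fell (adjusted p = 0.0383 and 0.0453).

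Of 26 other tested matrix proteins and cell surface proteoglycans, 5 fell in limma (19.2%, beside 4.25% of all genes) and none rose, with a median of -0.54, and 11 fell with the block (42.3%, beside 13.3%). Efemp1, fibulin 3, had 237 and 171 TPM in protrusions, against 397 and 471 TPM in cell bodies, and fell (-1.10 ± 0.18 SE). The transmembrane proteoglycan Sdc1 and the matrilin Matn2 fell too, at -0.84 and -0.77. Of 23 other matrix proteases and inhibitors, 7 fell (30.4%, beside 4.25%) and none rose, and 13 fell with the block (56.5%, beside 13.3%). They included the cathepsin Ctsl at -1.04, the sheddase Adam17 at -1.01 and the stromelysin Mmp3 at -0.93.

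Secreted proteins outside the matrix were mostly lower in protrusions, 22 of 28 (78.6%, beside 56.9% of all genes), with calls in both directions. Of 28 tested, 1 fell and 1 rose in limma, with a median of -0.30, and 8 fell (28.6%, beside 13.3% of all genes) and 2 rose (7.14%, beside 8.08%) with the block. The shares without the block were 3.57% in each direction, beside 4.25% and 2.99%. Cst3, cystatin C, had 207 and 219 TPM in protrusions, against 401 and 453 TPM in cell bodies, and fell. Vegfb, an angiogenic growth factor, rose, with 23.2 and 27.8 TPM in protrusions, against 12.5 and 12.9 TPM in cell bodies (log2 fold change 0.97 ± 0.15 SE, adjusted p = 0.0355). This call was lost with GC correction, where Vegfb, of 62.6% GC, was at 0.59 (adjusted p = 0.0775). Sdf4, a calcium-binding protein of the Golgi lumen, had 39.4 and 35.1 TPM in protrusions, against 52.5 and 60.5 TPM in cell bodies, and passed only with the block (adjusted p = 0.0162, and 0.0567 without). The controls Ppia, Ywhaz, Rhoa and Arpc3 ranged from -0.08 to 0.27 and none passed limma without or with the block. Rhoa, at 0.27, passed with the block after GC correction (0.43, adjusted p = 0.0207).

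Nearly all matrix genes encode a hydrophobic N-terminal stretch, and so do many other genes. The stretch, a mean Kyte-Doolittle hydropathy of at least 2 over 11 residues within the first 40, was found in 47 of the 51 tested matrix genes. The 4 without it, Col3a1, Col6a1, Vcan and Plod2, reached 1.92, 1.95, 1.94 and 1.85 and so lay just under that value. The other 1603 tested genes with such a stretch had a median of -0.39 on the log2 fold change scale, and the 8876 with a coding sequence and no such stretch a median of -0.01. With the block, 37.3% of the matrix genes, 34.2% of the other genes with the stretch and 8.16% of those without it fell. Without the block the shares were 7.84%, 13.1% and 1.94%. The matrix genes thus lay close to the other genes with the stretch, and these shares are descriptions with no test between the groups.

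**Figure D5:**
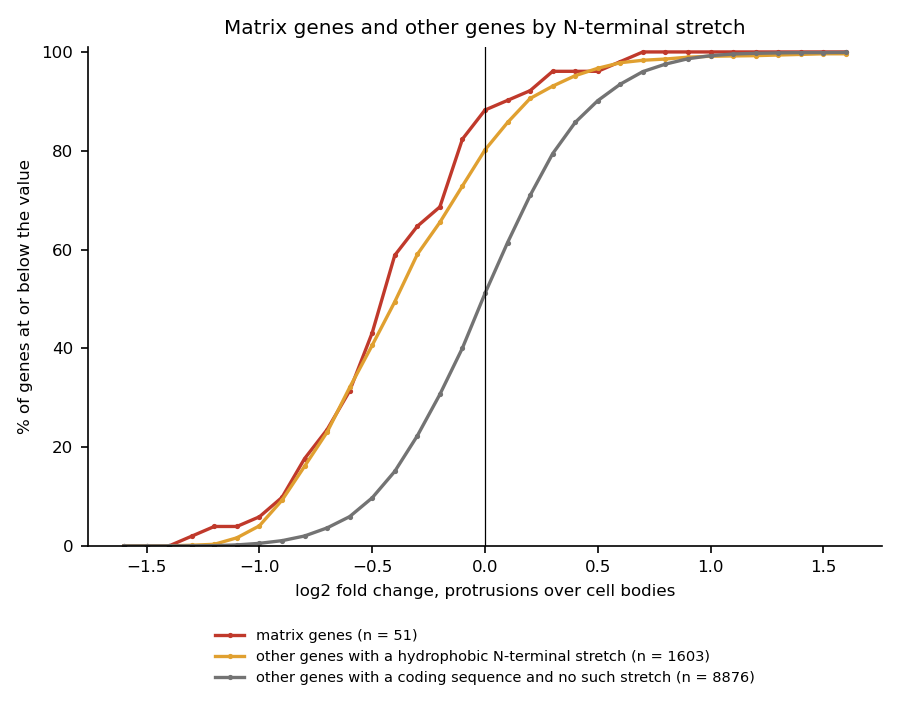
Percent of genes (vertical axis) with a log2 fold change, protrusions over cell bodies, at or below the value on the horizontal axis, for the 51 matrix genes, the 1603 other genes with a hydrophobic N-terminal stretch and the 8876 other genes without it. The first curve runs near the second, with 88.2% and 80.2% of genes below 0, and both lie left of the third, with 51.1%.

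Within the matrix genes, those of higher GC content had higher fold changes. Spearman's rho between GC content of the transcript and the log2 fold change was 0.62 over 51 genes, beside 0.37 over 11313 genes of the whole table, as a description of genes measured in the same 4 libraries. The 3 lowest fold changes belonged to Spp1, Vcan and Col5a2, with 43.3%, 43.7% and 49.6% GC, and the 3 highest to genes with 60.9% for Hspg2, 58.9% for Col1a1 and 58.3% for Ltbp3. Genes of high GC were not all high, since Emilin1, of 61.1% GC, was at -0.54. Protein length gave a rho of 0.43 over the 51 genes, beside -0.14 over 10530 genes. When each library was corrected for GC content, the median of the 51 genes was -0.52 and 4 fell, 3 of them among the 4 above. Over all 11400 genes the median was then -0.07, and 338 fell. Col5a2 was at -1.02 after the correction, with an adjusted p of 0.0543, and Emilin1 passed in its place. The higher value of Hspg2 was 0.28 after the correction.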

How the data were processed

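RNA-seq of protrusions and cell bodies was made by the authors from rRNA-depleted, strand-specific libraries. The deposited table gives TPM per library for 16537 genes on mm10. TopHat is the aligner of the paper's methods. The submitters' notes on processing list FastQC, STAR, featureCounts and edgeR, all without a version. The sources used here do not say how TPM was made. The authors' log2 fold changes, p-values and likelihood ratio score from edgeR were deposited too and not used. The authors' mean log2 CPM served only to scale recovered reads.

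The 54 genes and all lists were chosen with earlier results of these data known. Per-library values are given for genes called with or without the block, the 3 highest and 3 lowest fold changes, the 2 most abundant genes of each role and the 3 smallest p of each other list. Values of Dcn, Postn, Cyr61, Col5a1, P4ha2, Lama5 and the other genes given by library were added after their values were seen.

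limma 3.58.1 in R 4.3.3 was run on log2(TPM + 0.5) of the 11400 genes that averaged at least 1 TPM, with a prior variance that follows the mean level. Calls were two-sided, with Benjamini-Hochberg adjustment at 0.05. The pseudocount makes fold changes of low genes too small. Intervals are 95% intervals. Each SE and interval is that of the fit without the block unless stated, also beside an adjusted p with the block. With 2 libraries a fraction, a permutation of labels cannot reach 0.05, so single values were not tested. The p-values rest on these libraries alone, and more on the prior variance drawn from all tested genes than on a gene's own spread. That prior counted for 3.81 degrees of freedom in the main fit and for 10.2 in the blocked fit. Blocked calls thus give little weight to a gene's own spread. The supplementary table heads libraries of a number as paired, and their deviations from the fraction means correlated at 0.447 over 11400 genes, so the replicate number was taken as a block in a second fit, given where it changed a call. TPM ratios gave whole reads and whole gene lengths for all 16537 genes (tolerance 1e-06). Genes were matched to GENCODE (GRCm38) by symbol (15710) or synonym (642). Coding sequences were translated for 14750. Scripts were tested on simulated data. Alternatives were other pseudocounts, filters and scalings, GC correction, voom on recovered reads and leaving out each library.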

Additional observations from a re-analysis of the deposited data

How the results depend on the processing

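With the replicate block, 19 matrix mRNAs fell, and 1513 genes fell and 921 rose in all, against 4, 485 and 341 without it. No filter on low values and no trend in the prior variance left 0 matrix mRNAs and 0 genes called in either direction, although 20 and 19 of the matrix mRNAs had an unadjusted p under 0.05. A mean of at least 5 TPM gave 6 matrix mRNAs of 45 and 801 genes that fell. The 6 were the 4 called without the block, with Fstl1 and Serpinh1. GC correction gave 4 matrix mRNAs that fell, and 338 genes that fell and 197 that rose. GC correction with the replicate block gave 29 matrix mRNAs, and 1525 genes that fell and 923 that rose. Voom on recovered reads gave 889 and 775 genes, and with the replicate block 28 matrix mRNAs that fell, 2 that rose, and 2052 and 1832 genes. Voom with the block used a variance shared by all genes, so its calls give no weight to a gene's own spread. The blocked fits of log2 TPM, without and with GC correction, gave that spread little weight. Leaving out each library in turn gave 0 to 4 matrix mRNAs that fell, 0 to 144 genes that fell and 0 to 14 that rose; the library left alone was then assumed to vary like those of the other fraction. The cause of these differences was not tested. The median log2 fold change of the matrix mRNAs stayed below 0 in all of these fits.

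Fold changes turned sign under some setting for genes that passed neither without nor with the block at log2(TPM + 0.5). Of these, Col1a1, Dcn and Postn passed in voom with the replicate block, and Col18a1 and Loxl1 after GC correction with it. Median centring gave 0.036 for Col6a2 and 0.028 for Lox, and quantile normalization 0.056 for Lox. GC correction, without and with the block, gave -0.12 for Col5a1, -0.12 for Lama5, 0.085 for Lox and -0.029 for Efemp2. Voom gave 0.019 for Col6a2, 0.017 with the replicate block, and 0.014 for Lox. Without 1 library the values ran from -0.087 to 1.20 for Col1a1, -0.34 to 0.16 for Col1a2, -0.12 to 0.39 for Col5a1, -0.28 to 0.19 for Col6a2, -0.43 to 0.075 for Col18a1, -0.62 to 0.28 for Fn1, -0.066 to 0.47 for Lama5, -1.70 to 0.16 for Dcn, -0.56 to 0.19 for Agrn, -0.29 to 0.18 for Lox, -0.29 to 0.036 for Loxl1, -0.60 to 0.13 for Loxl2, -1.02 to 0.26 for Cyr61, -1.47 to 0.23 for Postn, -0.17 to 0.75 for Ltbp3.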
